A study of Rhododendron with 15 samples.

Results

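The leaf transcriptome of Rhododendron 'xiaotaohong' held at 40 °C with melatonin was compared with that of leaves held at 25 °C without it. The comparison uses 6 of the 15 libraries of the study, 3 in each group, and all genes of the deposited table. The other libraries come from leaves at 35 °C and 40 °C without melatonin and at 35 °C with it, and all 15 are leaf polyA RNA of this one variety. The 25 °C group is the melatonin-free control, so the 2 groups differ in temperature and in melatonin at once. The 40 °C libraries without melatonin are therefore given beside them. The sources used here do not state the melatonin dose, how long the heat lasted or when leaves were taken. Nothing says that the replicates are separate plants, so the p-values measure only the spread between these libraries. No library at 25 °C with melatonin is used here.

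Heat unfolds proteins, and plant cells answer through heat stress transcription factors, which switch on genes for chaperones: small heat shock proteins hold unfolded chains, HSP70 with its DnaJ partners and the chaperonins refold them, and HSP100 pulls aggregates apart. Photosynthesis is among the first functions of a leaf to fail in heat, and Rubisco activase, the chaperone-like enzyme that keeps the carbon-fixing enzyme open, is known for its low heat stability. Melatonin is an indole made from tryptophan that plants produce themselves and that is applied to crops in studies of stress tolerance. Gene roles below come from Arabidopsis thaliana and other plants, through the descriptions in the authors' table.

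The libraries held 56619232 to 57576522 counts at 25 °C and 54300447 to 61137577 at 40 °C with melatonin, and 26183 of 29985 listed genes passed the filter on low counts. Pearson's r of log2 CPM across genes was 0.972 to 0.973 within the 25 °C group and 0.971 to 0.973 within the 40 °C group with melatonin. It was 0.831 to 0.835 between these groups and 0.885 to 0.891 between the 40 °C libraries with and without melatonin. Leaf mesophyll markers, which are here light-harvesting proteins and carbonic anhydrases, summed to 14019 to 14902 FPKM at 25 °C and to 9870 to 9932 FPKM at 40 °C with melatonin. FPKM is the fragment number scaled by transcript length and library size. The fold changes were fitted to TMM-scaled counts, so where a difference is small their sign or size can differ from the ratio of the mean FPKM values. Flower and pollen markers summed to 11.1 to 12.7 and 25.3 to 28.3 FPKM over 25 genes, and the 8 root markers to 53 to 58.8 and 66.8 to 69.1 FPKM, with 2 called higher and 3 lower. The higher ones were high affinity nitrate transporter 2.5 like genes, MSTRG.20315 at 2.45 and 16.4 FPKM and MSTRG.23720 at 1.04 and 9.04 FPKM, while the 2 Casparian strip genes, which mark the root endodermis, averaged 0 and 0.0618 FPKM at 25 °C and 0 and 0.116 FPKM at 40 °C with melatonin. Most of the root sum came from ROOT HAIR DEFECTIVE like genes called lower, MSTRG.15229 at 36.1 and 27.6 FPKM and MSTRG.3168 at 15.5 and 14.3 FPKM. Mitochondrial genome transcripts made up 0.0239% ± 0.00314 of the counts at 25 °C and 0.0619% ± 0.00642 at 40 °C with melatonin (SD, n = 3 each), and plastid genome transcripts 0.348% ± 0.0889 and 0.171% ± 0.0671. In both cases the 3 libraries of one group lay apart from the 3 of the other, and the two-sided exact permutation p was 0.10, the smallest that 3 against 3 can give.

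Most of the measured transcriptome differed between 40 °C with melatonin and 25 °C. Of 26183 genes tested, 17692 (67.6%) were called at an adjusted p under 0.05 in edgeR's quasi-likelihood test with Benjamini-Hochberg adjustment, 8972 higher (34.3%) and 8720 lower (33.3%). At least 2-fold differences were estimated for 5111 genes called higher (19.5%) and 4658 called lower (17.8%), and at least 10-fold differences for 1417 and 1218. The median log2 fold change over all genes was 0.01, with quartiles of -0.81 and 0.90. Side by side, 40 °C without melatonin gave 19861 called genes against 25 °C (75.9%), 9754 higher (37.3%) and 10107 lower (38.6%). The 2 groups at 40 °C differed in 15466 genes (59.1%), 8605 higher with melatonin (32.9%) and 6861 lower (26.2%), a split that moves to 10492 and 5319 in limma on log2(FPKM + 1). The median size of the log2 fold change was 0.85 for 40 °C with melatonin against 25 °C, 1.19 for 40 °C without melatonin against 25 °C, and 0.67 between the 2 groups at 40 °C. The comparisons share libraries, so these values are set side by side and not tested against each other.

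**Figure D1:**
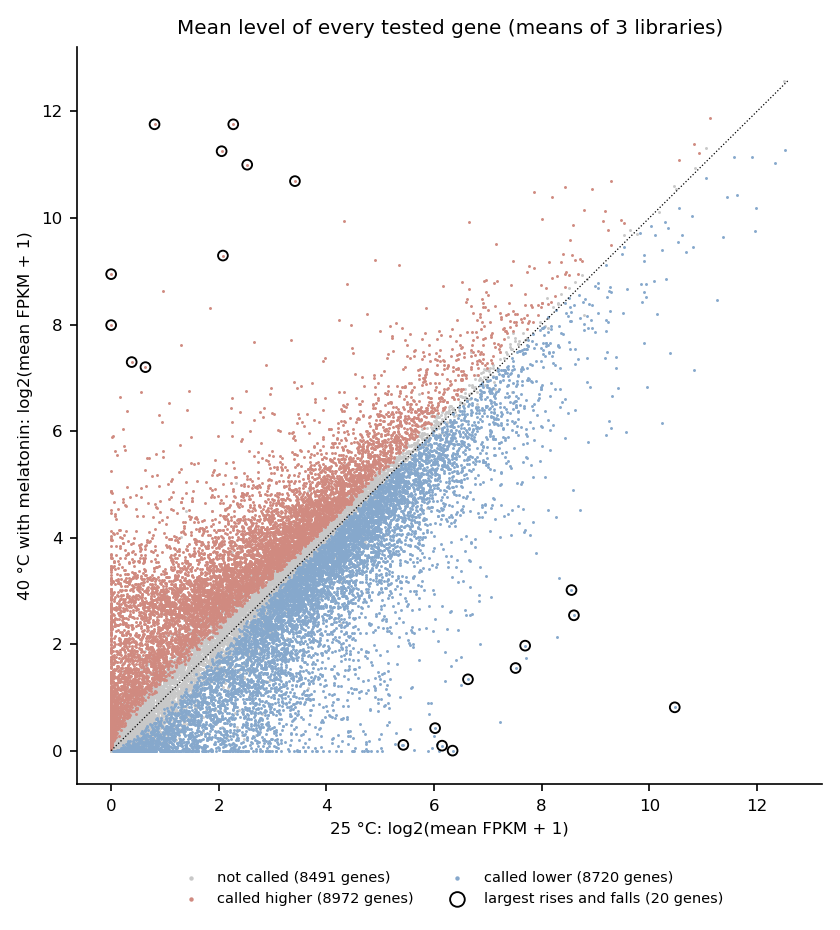
Mean level of each of 26183 tested genes at 25 °C (horizontal) and at 40 °C with melatonin (vertical), both as log2(mean FPKM + 1) over 3 libraries, with genes called higher in red, lower in blue and not called in grey. The dotted line marks equal levels and the circles the 10 largest rises and 10 largest falls, most of the rises being small heat shock proteins.

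Gene lists were matched by words in the descriptions, leaving out 1316 loci that join several gene names, and each is given below by its counts of members called, against the background of 34.3% higher and 33.3% lower. For counts against 40 °C without melatonin the background is 32.9% higher and 26.2% lower. For 40 °C without melatonin against 25 °C it is 37.3% and 38.6%. Of the lists of at least 5 tested members, those with the largest share higher were the small heat shock proteins, HSP100 and Clp proteins and chaperonins. Of the lists with at least 5 tested members, the largest lower shares were 85.0% for photosystem and electron transport genes, 76.9% for trehalose genes and for epidermis markers, 73.7% for gibberellin, 70.8% for sulfate, 64.3% for auxin signalling and for the Calvin cycle, 63.6% for wax, and 63.2% for lignin and for sucrose-cleaving genes. With the loci of several gene names kept, the genes called higher went from 2 to 4 in the trehalose list and from 6 to 10 in the lignin list, and those called lower from 1 to 2 among HSP100 and Clp genes.

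**Figure D2:**
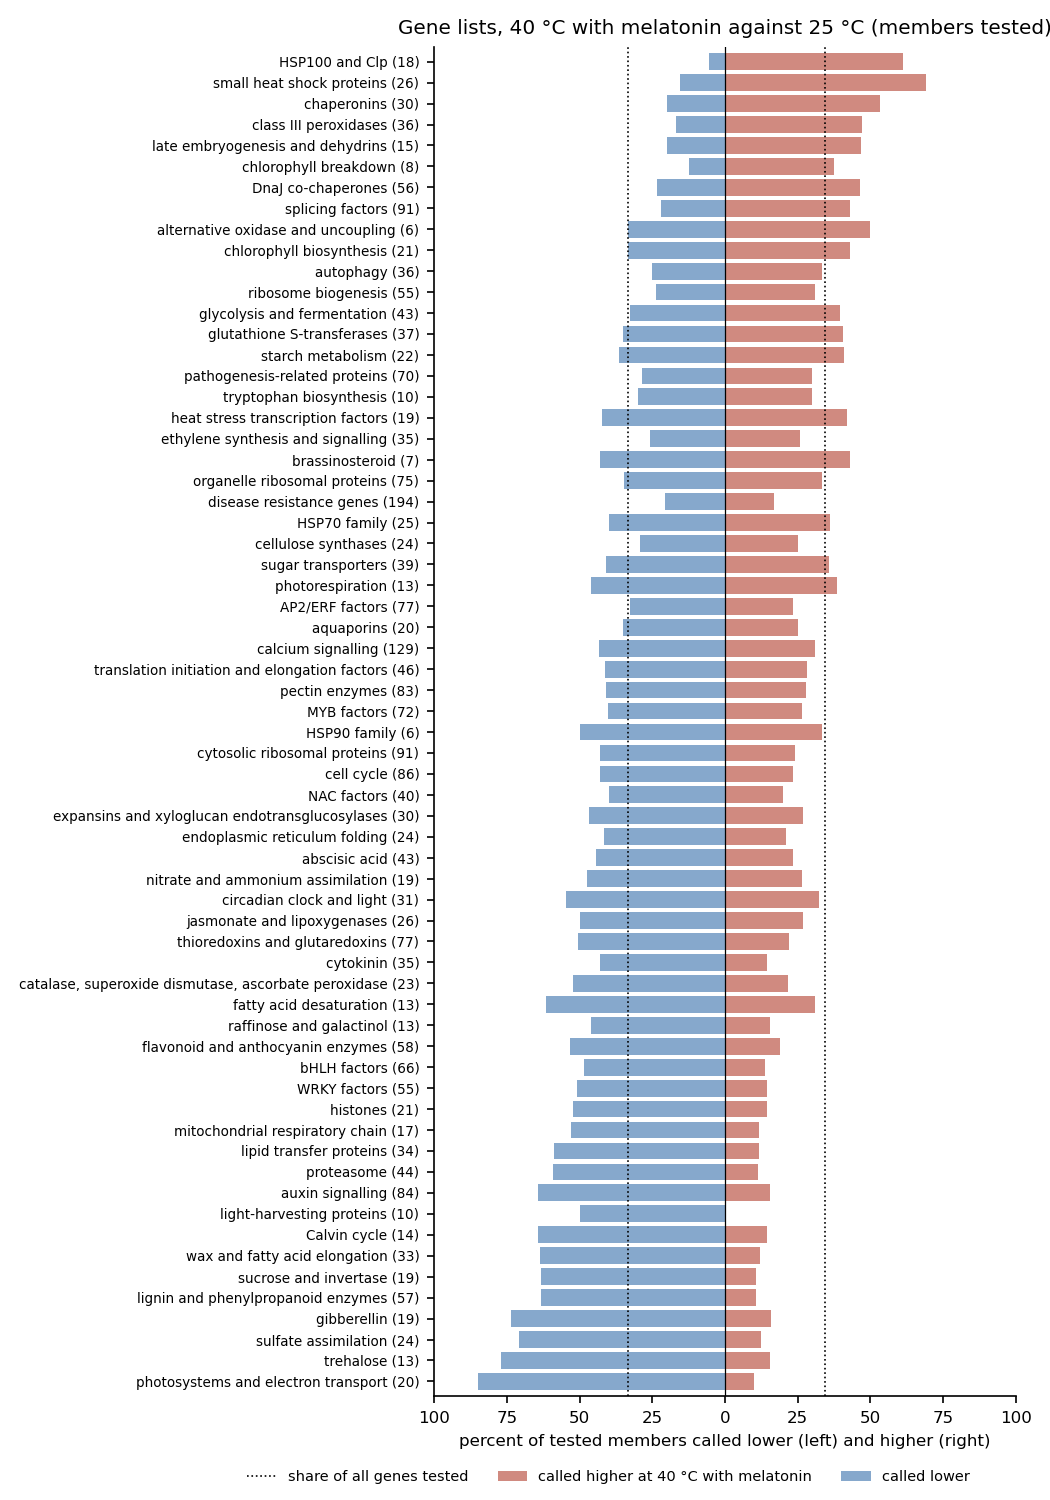
Percent of the tested members of each gene list called lower (blue, left) and higher (red, right) at 40 °C with melatonin against 25 °C, with the number tested in brackets and lists of at least 5 tested members shown, tissue markers aside. Dotted lines mark the shares over all genes tested, 33.3% lower and 34.3% higher; photosystem genes reach the far left and small heat shock proteins the far right.

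Small heat shock proteins dominated the rises. Of 26 tested members of this family, 18 were called higher and 4 lower at 40 °C with melatonin than at 25 °C, with a median log2 fold change of 1.9 against 0.01 over all genes. Their summed level was 1880 to 1998 FPKM at 25 °C, 13474 to 13635 FPKM at 40 °C without melatonin and 15729 to 16093 FPKM with it. Against 40 °C without melatonin, 10 members were called higher and 9 lower. These genes are close relatives, and the authors' counting may have split reads among them.

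MSTRG.5787, a small heat shock protein at chromosome 3, 33708761 to 33710658, had 0.868, 0.861 and 0.518 FPKM in the 3 libraries at 25 °C and 3460, 3442 and 3490 FPKM in those at 40 °C with melatonin. Its log2 fold change was 12.06 ± 0.16 (SE; adjusted p = 1.9e-16, edgeR). At 40 °C without melatonin it averaged 1928 ± 43 FPKM (SD, n = 3), below each library with melatonin (log2 fold change 0.65 ± 0.10, adjusted p = 3.7e-05). By mean FPKM it ranked 20246 of the listed genes at 25 °C and 3 at 40 °C with melatonin. MSTRG.22177, an Hsp20 domain protein at chromosome 13, 8463100 to 8463576, read 3.24, 3.3 and 4.92 FPKM at 25 °C and 3399, 3464 and 3524 FPKM at 40 °C with melatonin (log2 fold change 9.71 ± 0.12, adjusted p = 9.4e-17). Here the 40 °C libraries without melatonin lay higher, at 4409, 4274 and 4268 FPKM (log2 fold change with against without melatonin -0.51 ± 0.08, adjusted p = 6.7e-05). The 2 genes thus differ in which of the 40 °C groups was higher.

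MSTRG.23495, a class I small heat shock protein on an unplaced contig, 133931 to 135213, had no count in any 25 °C library and 495, 484 and 496 FPKM at 40 °C with melatonin. Set against a floor of 3 counts over the 3 libraries at 25 °C, it was at least 15862-fold higher. MSTRG.17069, another class I member at chromosome 10, 1533895 to 1534296, was also at 0 at 25 °C and read 261, 253 and 244 FPKM at 40 °C with melatonin, at least 5790-fold higher. Both also exceeded the 40 °C group without melatonin, which averaged 170 ± 26.6 and 99.4 ± 12.6 FPKM. Their log2 fold changes between the 40 °C groups were 1.34 ± 0.11 and 1.16 ± 0.17, with adjusted p of 4e-07 and 8.6e-05.

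MSTRG.16626, a further class I member, rose from 4.77 ± 0.69 to 2047 ± 46.9 FPKM and MSTRG.19351, of class IV, from 3.15 ± 0.817 to 2440 ± 102 FPKM (adjusted p = 1.1e-17 and 5e-15). MSTRG.1735, an Hsp20 domain protein, rose from 0.556 ± 0.377 to 146 ± 1.39 FPKM (adjusted p = 1.8e-11). The family did not move as one. MSTRG.22059, of class I, fell from 238, 259 and 250 FPKM at 25 °C to 43.1, 41.7 and 42.8 FPKM (log2 fold change -2.65 ± 0.07, adjusted p = 4.2e-13), opposite to the members named above. MSTRG.20611, an HSP17.7, averaged 149 ± 15.5 FPKM at 25 °C and 163 ± 2.12 FPKM at 40 °C with melatonin (log2 fold change 0.03 ± 0.08, adjusted p = 0.8) and was chosen for mention after its values were seen.

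The ATP-driven chaperones held both genes high in the cool leaf and genes high in the hot one. In the HSP70 family, 9 of 25 tested members were higher (36%) and 10 lower (40%), near the 34.3% and 33.3% over all genes. The summed level went from 3755 to 3810 FPKM at 25 °C to 2054 to 2109 FPKM at 40 °C with melatonin. MSTRG.21346, an HSP70 at chromosome 12, 27315044 to 27317026, read 3.7, 2.89 and 3.07 FPKM at 25 °C and 612, 634 and 634 FPKM at 40 °C with melatonin (log2 fold change 7.50 ± 0.09, adjusted p = 8.2e-17). MSTRG.7480, an HSP70 at chromosome 4, 26229939 to 26233596, went the other way, from 1806, 1816 and 1821 FPKM to 140, 139 and 142 FPKM (log2 fold change -3.79 ± 0.03, adjusted p = 9.5e-19). MSTRG.22180 fell likewise from 991 ± 14.7 to 112 ± 3.06 FPKM (adjusted p = 6.9e-17). By mean FPKM, MSTRG.7480 ranked 18 of the listed genes at 25 °C and 451 at 40 °C with melatonin.

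HSP90, which matures signalling proteins, had 2 members higher and 3 lower of 6 (33.3% and 50%). MSTRG.5596, annotated as heat shock protein 83, rose from 291 ± 2.49 to 1339 ± 14.8 FPKM (adjusted p = 2e-16), while MSTRG.11687, a cognate protein 80, fell from 1137 ± 10.4 to 291 ± 6.38 FPKM (adjusted p = 2.2e-15). MSTRG.6331, a second cognate protein 80, fell from 1198 ± 7.85 to 676 ± 11.9 FPKM (adjusted p = 2.2e-12). Of 18 HSP100 and Clp genes, 11 were higher and 1 lower, with a median log2 fold change of 0.67. The Clp protease subunit MSTRG.7563, part of an organelle protease, rose from 5.61 ± 0.77 to 36.4 ± 2.95 FPKM (adjusted p = 6.1e-09).

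Among 56 DnaJ genes, 26 were higher and 13 lower than at 25 °C, but 14 were higher and 24 lower than at 40 °C without melatonin, and the summed level was 1759 to 1786 FPKM at 25 °C, 2667 to 2683 FPKM at 40 °C with melatonin and 4760 to 5080 FPKM at 40 °C without. Chaperonins had 16 higher and 6 lower of 30. MSTRG.4912, a small chloroplast chaperonin, rose from 0.518 ± 0.396 to 11 ± 1.04 FPKM and MSTRG.15856, a Cpn10, from 14.8 ± 3.18 to 97.1 ± 5.27 FPKM (adjusted p = 4.6e-07 and 2.3e-10).

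The heat stress transcription factors were evenly divided, 8 higher and 8 lower of 19 (42.1% each, beside 34.3% and 33.3% over all genes). HSF30 (MSTRG.18818) had 13.2, 17.7 and 16.8 FPKM at 25 °C and 66.6, 66.9 and 60.8 FPKM at 40 °C with melatonin (log2 fold change 1.92 ± 0.13, adjusted p = 8.2e-09). It was lower at 35 °C, with means of 3.55 FPKM without melatonin and 2.96 FPKM with it. The factor MSTRG.2066, like Arabidopsis A-6b, fell from 42.2, 30.4 and 30.9 to 2.04, 2.13 and 2.24 FPKM (log2 fold change -4.10 ± 0.22, adjusted p = 4.2e-10).

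**Figure D3:**
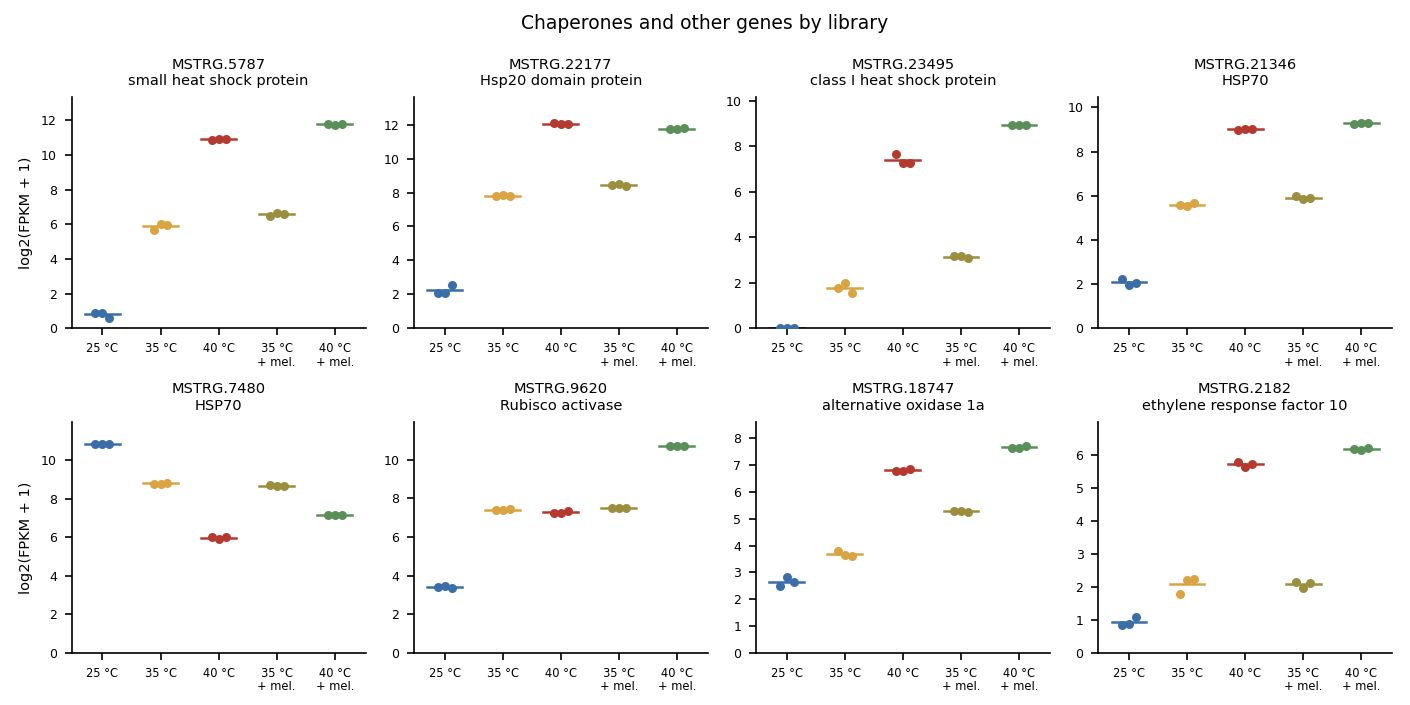
Levels of 8 genes as log2(FPKM + 1) in each library (points) with the mean of 3 (bar) in the 5 groups, "mel." standing for melatonin. 3 small heat shock proteins and the HSP70 MSTRG.21346 are near 0 to 4 at 25 °C and above 8 at 40 °C with melatonin, whereas the HSP70 MSTRG.7480 runs the other way.

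Proteasome and cytosolic ribosomal protein genes were lower more often than higher. Of 44 proteasome subunits, 26 were lower and 5 higher than at 25 °C, with a median log2 fold change of -0.35 and a summed level of 1277 to 1286 FPKM against 1082 to 1102 FPKM. The regulatory subunit MSTRG.16652 fell from 54.8 ± 2.78 to 28.4 ± 1.55 FPKM (adjusted p = 4.2e-09), and the beta subunit MSTRG.20207 rose from 31.7 ± 1.03 to 51.8 ± 3.77 FPKM (adjusted p = 6e-07). Cytosolic ribosomal proteins had 22 higher and 39 lower of 91 (median -0.18). For the same list, 40 °C without melatonin against 25 °C gave 54 higher and 25 lower, and melatonin against none at 40 °C gave 7 higher and 62 lower. Their summed level at 40 °C was 7725 to 7846 FPKM with melatonin and 10276 to 10561 FPKM without, beside 7890 to 8135 FPKM at 25 °C. Splicing factors had 39 higher and 20 lower of 91, with the small U2af subunit MSTRG.1605, which reads the 3′ splice site, at 28.3 ± 0.813 FPKM at 25 °C and 85.2 ± 3.35 FPKM at 40 °C with melatonin (adjusted p = 2.5e-13).

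Photosynthesis genes were mostly lower than at 25 °C and mostly higher than at 40 °C without melatonin. Of 20 nuclear genes for photosystem and electron transport proteins, 17 were lower and 2 higher than at 25 °C, with a median log2 fold change of -0.71. Against 40 °C without melatonin 18 of them were higher and 0 lower, with a median of 1.0. Their summed level was 19223 to 20081 FPKM at 25 °C, 13667 to 13847 FPKM at 40 °C with melatonin and 5856 to 5971 FPKM at 40 °C without. The mesophyll markers, which share the light-harvesting genes with these lists, had 7 lower and 0 higher of 12 against 25 °C. In bulk leaf RNA, fewer cells of a type and less RNA per cell cannot be told apart.

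The 10 kDa polypeptide of photosystem II (MSTRG.6296, chromosome 4, 551989 to 557301) read 805, 697 and 767 FPKM at 25 °C and 62.5, 60.6 and 62.9 FPKM at 40 °C with melatonin (log2 fold change -3.71 ± 0.11, adjusted p = 1.1e-12). At 40 °C without melatonin it averaged 25.9 ± 4.67 FPKM. The 40 °C group with melatonin lies in the middle of the 3, nearer to the hot group without it. Oxygen-evolving enhancer protein 1 (MSTRG.14408), which shields the manganese cluster that splits water, was one of the 2 members higher than at 25 °C, at 1941 ± 9.23 FPKM and 2370 ± 26.1 FPKM (log2 fold change 0.19 ± 0.03, adjusted p = 1.2e-05), as was MSTRG.13082, an oxygen-evolving enhancer like protein, at 14 ± 0.555 and 32.6 ± 1.73 FPKM (adjusted p = 7.9e-10). MSTRG.14408 was named after its values were seen.

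The light-harvesting proteins, which bind chlorophyll around the photosystems, were 5 lower, 0 higher and 5 not called of 10 against 25 °C, with 2 called higher in limma on log2(FPKM + 1). All 10 were higher than at 40 °C without melatonin. Chlorophyll a-b binding protein 13 (MSTRG.24636, an unplaced contig, 649399 to 651319) read 702, 661 and 694 FPKM at 25 °C, 109, 112 and 112 FPKM at 40 °C with melatonin and 2.9, 3.18 and 3.65 FPKM at 40 °C without. It was lower than at 25 °C (log2 fold change -2.73 ± 0.06, adjusted p = 2.1e-14) and higher than at 40 °C without melatonin (4.90 ± 0.07, adjusted p = 3.6e-16), and at 35 °C it averaged 108 FPKM. MSTRG.6604, chlorophyll a-b binding protein 5 and the most abundant member at 25 °C, averaged 5889 ± 391 FPKM at 25 °C and 2483 ± 16 FPKM at 40 °C with melatonin (log2 fold change -1.35 ± 0.05, adjusted p = 1.4e-11). MSTRG.21116, protein P4 of the same family, averaged 1842 ± 34.7 and 1955 ± 36.6 FPKM (log2 fold change -0.02 ± 0.03, adjusted p = 0.62), a difference that did not pass the test. MSTRG.6604 and MSTRG.21116 were named after their values were seen.

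Carbon fixation genes had 9 lower and 2 higher of 14 against 25 °C, and 10 higher and 0 lower against 40 °C without melatonin. Rubisco activases 1 and 2 moved in opposite directions. MSTRG.9620, activase 1 at chromosome 5, 31570269 to 31573635, had 9.59, 10.2 and 9.2 FPKM at 25 °C, 153, 149 and 159 FPKM at 40 °C without melatonin and 1651, 1654 and 1653 FPKM at 40 °C with it. It was higher than in both groups (log2 fold change 7.31 ± 0.05, adjusted p = 9.9e-20 against 25 °C, and 3.24 ± 0.04, adjusted p = 6.5e-17, against 40 °C without melatonin). MSTRG.22136, activase 2, averaged 5143 ± 20.8 FPKM at 25 °C and 2097 ± 25.5 FPKM at 40 °C with melatonin (log2 fold change -1.40 ± 0.02, adjusted p = 9.2e-17). It was named after its values were seen. At 40 °C without melatonin activase 2 averaged 588 ± 10.3 FPKM. Activase 1 was thus a minor form at 25 °C and approached the level of activase 2 at 40 °C with melatonin. Transketolase MSTRG.12004, of the regeneration phase of the cycle, fell from 725, 746 and 722 to 293, 296 and 299 FPKM (log2 fold change -1.41 ± 0.03, adjusted p = 1.7e-14). Chloroplast fructose-1,6-bisphosphatase MSTRG.7544 fell from 179 ± 42.8 to 50.1 ± 13.8 FPKM (adjusted p = 2.2e-06).

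Chlorophyll biosynthesis had 9 genes higher and 7 lower of 21. Protochlorophyllide reductase MSTRG.11421, which catalyses the light-dependent step, rose from 28, 25 and 24.7 FPKM at 25 °C to 290, 293 and 292 FPKM at 40 °C with melatonin (log2 fold change 3.39 ± 0.05, adjusted p = 1.3e-15) and stood at 574 ± 39 FPKM at 40 °C without it. Glutamyl-tRNA reductase MSTRG.10516, the first committed enzyme of the pathway, fell from 143 ± 1.9 to 77.5 ± 2.08 FPKM (adjusted p = 6.4e-11). Of 8 genes for chlorophyll breakdown, 3 were higher, a share of 37.5% near that over all genes, and 1 was lower, or 2 with loci of several gene names kept. Pheophytinase MSTRG.1047 rose from 43.1 ± 1.18 to 112 ± 0.224 FPKM and pheophorbide a oxygenase MSTRG.22302 from 24.6 ± 0.591 to 56.2 ± 4.88 FPKM (adjusted p = 9.6e-13 and 1.7e-09), and a second pheophytinase, MSTRG.1402, fell from a mean of 10.6 to 6.08 FPKM (log2 fold change -0.91 ± 0.14, adjusted p = 3.3e-05).

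The surface of the leaf is covered by cutin and wax, built by epidermal cells, and its genes were among those that fell most. Of 33 genes for wax and very-long-chain fatty acids, 21 were lower and 4 higher (median log2 fold change -2.04), and their summed level was 793 to 834 FPKM at 25 °C and 145 to 156 FPKM at 40 °C with melatonin. Lipid transfer proteins, which carry lipids through the wall, had 20 lower and 4 higher of 34 (median -2.84, and -2.83 with genes at 0 in a group set to a floor of 3 counts). Other settings moved this median further, as given below. Epidermis markers, a list that overlaps the wax list through its ECERIFERUM and 3-ketoacyl-CoA synthase genes, were lower in 20 and higher in 2 of 26. Their summed level was 706 to 736 FPKM at 25 °C, 103 to 111 FPKM at 40 °C without melatonin and 101 to 105 FPKM with it. Of the 33 listed markers 4 were at 0 at 25 °C and 4 at 40 °C with melatonin, among them HDG2 (Rhsim06G0159900), at 0 in both. The homeobox genes ANTHOCYANINLESS 2-like MSTRG.11930 and PROTODERMAL FACTOR like MSTRG.3157 averaged 14.7 and 5.37 FPKM at 25 °C. At 40 °C with melatonin they averaged 10.7 and 2.76 FPKM. The 3-ketoacyl-CoA synthase MSTRG.14211, the most abundant marker at 25 °C, went from 320 to 8.51 FPKM, while another, MSTRG.10244, went from 22.8 to 33.5 FPKM. Of 2 tested genes tied to stomata, the stomagen like MSTRG.21950 averaged 23.3 FPKM at 25 °C and 12.9 FPKM at 40 °C with melatonin. The FAMA like Rhsim09G0055600 averaged 4.6 and 0.563 FPKM, and no amount of guard cells is read from these genes. The part of epidermal cells in these differences was not tested.

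MSTRG.12088, an ECERIFERUM like protein of wax formation at chromosome 7, 4279805 to 4287513, read 65, 64.9 and 61.9 FPKM at 25 °C and 0.37, 0.284 and 0.365 FPKM at 40 °C with melatonin (log2 fold change -7.63 ± 0.18, adjusted p = 6.1e-14). The 40 °C libraries without melatonin read 0.574, 0.349 and 0.255 FPKM, and the difference between the 40 °C groups did not pass the test (adjusted p = 0.13). MSTRG.2699, like ECERIFERUM 26, fell from 98.1 ± 1.44 to 1.53 ± 0.561 FPKM and the lipid transfer protein MSTRG.17502 from 206 ± 28.1 to 2.92 ± 0.921 FPKM (adjusted p = 4.4e-13 and 2.3e-11). At 35 °C MSTRG.12088 still averaged 59.5 FPKM without melatonin and 48.4 FPKM with it. The other way, the 3-ketoacyl-CoA synthase MSTRG.13484, which elongates fatty acids, rose from 0.788 ± 0.231 to 10.7 ± 1 FPKM (adjusted p = 3.7e-10).

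Phenylpropanoid genes were mostly lower while their summed level was not. Of 57 lignin and phenylpropanoid enzymes, 36 were lower and 6 higher (median -1.72, and -1.66 with genes at 0 in a group at the floor), yet the list summed to 419 to 454 FPKM at 25 °C and to 427 to 428 FPKM at 40 °C with melatonin. Cinnamate 4-hydroxylase MSTRG.1855, an early step of the pathway, rose from 12.6, 12.6 and 11.6 to 119, 121 and 118 FPKM (log2 fold change 3.18 ± 0.05, adjusted p = 1.5e-15). Cinnamoyl-CoA reductase like MSTRG.18629, which commits the pathway to lignin, fell from 19.8 ± 0.354 to 0.518 ± 0.106 FPKM, and the hydroxycinnamoyltransferase MSTRG.265 from 28.7 ± 10.5 to 1.33 ± 0.202 FPKM (adjusted p = 1.1e-06 and 6.1e-09). Vascular markers, among them laccases also in this list, were lower in 17 and higher in 3 of 31 genes and summed to 315 to 316 FPKM at 25 °C, 99.2 to 103 FPKM at 40 °C without melatonin and 97.9 to 101 FPKM with it. Of the 41 listed, 8 were at 0 at 25 °C and 11 at 40 °C with melatonin, all laccases. The phloem gene MSTRG.14865, a sieve element occlusion protein, fell from 203 ± 1.02 to 16.2 ± 1.16 FPKM (adjusted p = 4.5e-11) and so holds most of the summed level at 25 °C and most of its drop. Other sieve element occlusion genes of the list went both ways. MSTRG.13973 rose from a mean of 2.4 to 7.63 FPKM and MSTRG.13828, named after its values were seen, from 8.41 to 20.1 FPKM (adjusted p = 2.4e-08 and 1.2e-08). The mean of MSTRG.13972 was also higher, at 0.397 and 0.731 FPKM. Means were lower for MSTRG.14869 (4.51 and 0.229 FPKM), Rhsim08G0180700 (2.14 and 0.134 FPKM), Rhsim10G0033800 (0.55 and 0.136 FPKM) and Rhsim10G0037900 (0.436 and 0.123 FPKM). The part of vascular tissue in these differences was not tested.

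Flavonoid and anthocyanin enzymes had 31 lower and 11 higher of 58 against 25 °C (median -1.08), and 25 higher and 12 lower against 40 °C without melatonin. Chalcone synthase MSTRG.2638, the entry enzyme of the pathway, read 196, 177 and 194 FPKM at 25 °C, 24.4, 22.1 and 22.8 FPKM at 40 °C with melatonin and 3.8, 6.02 and 4.68 FPKM without. The log2 fold change was -3.14 ± 0.15 against 25 °C (adjusted p = 1.2e-10) and 2.06 ± 0.15 against 40 °C without melatonin (adjusted p = 2.1e-08). Every 40 °C library with melatonin lay above every 40 °C library without it.

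MSTRG.13552, a class III peroxidase at chromosome 7, 35259359 to 35262411, showed the largest fall by log2(FPKM + 1) of any described gene, from 1445, 1383 and 1435 FPKM to 0.537, 0.97 and 0.763 FPKM (log2 fold change -10.97 ± 0.16, adjusted p = 6.8e-16). Class III peroxidases cross-link wall polymers with hydrogen peroxide. The list as a whole nevertheless had 17 members higher and 6 lower of 36 (median 0.85), while its summed level went from 1529 to 1591 to 304 to 313 FPKM. MSTRG.13552 holds most of that sum at 25 °C, and its own fall was larger than that of the sum. MSTRG.23555, a dammarenediol II synthase of triterpene formation on an unplaced contig, 28083 to 30706, read 87.4, 69.9 and 83.5 FPKM at 25 °C and had no count in the 3 libraries at 40 °C with melatonin, at least 6455-fold lower against a floor of 3 counts over the group. It was at 0 in the 40 °C libraries without melatonin as well.

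Also among the 10 largest falls, the RALF-like peptide MSTRG.24081, of a family that signals through wall receptors, fell from 70 ± 6.62 to 0.0667 ± 0.116 FPKM (adjusted p = 1.6e-10). The BURP domain protein MSTRG.12900 fell from 375 ± 4.73 to 7.08 ± 0.0674 FPKM, protein E6 MSTRG.22855 from 42.1 ± 2.03 to 0.0778 ± 0.0811 FPKM, and the Nipped-B-like MSTRG.4068 from 387 ± 11.1 to 4.82 ± 0.771 FPKM (adjusted p = 5.3e-14, 2.7e-10 and 1.2e-13). At 35 °C the BURP gene averaged 278 FPKM. The rising WD repeat protein MSTRG.19221 went from 0.269, 0.476 and 0.165 FPKM to 165, 150 and 153 FPKM (log2 fold change 8.80 ± 0.21, adjusted p = 7.2e-14). Of the 219 named genes, 46 overlap another locus, and 40 overlap a locus on the other strand, among them MSTRG.5787, MSTRG.22177, MSTRG.19351, MSTRG.21346, MSTRG.7480, MSTRG.4068, MSTRG.17502 and MSTRG.20857. Since no source used here states the strand setting of the counting, reads of these 40 genes and those of the opposite locus cannot be told apart. A further limit is that 25 named genes share their gene name with another locus, among them Rubisco activase 1 (MSTRG.9620) and galactinol synthase 1 (MSTRG.20857). Whether reads were split between such loci was not tested.

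**Figure D4:**
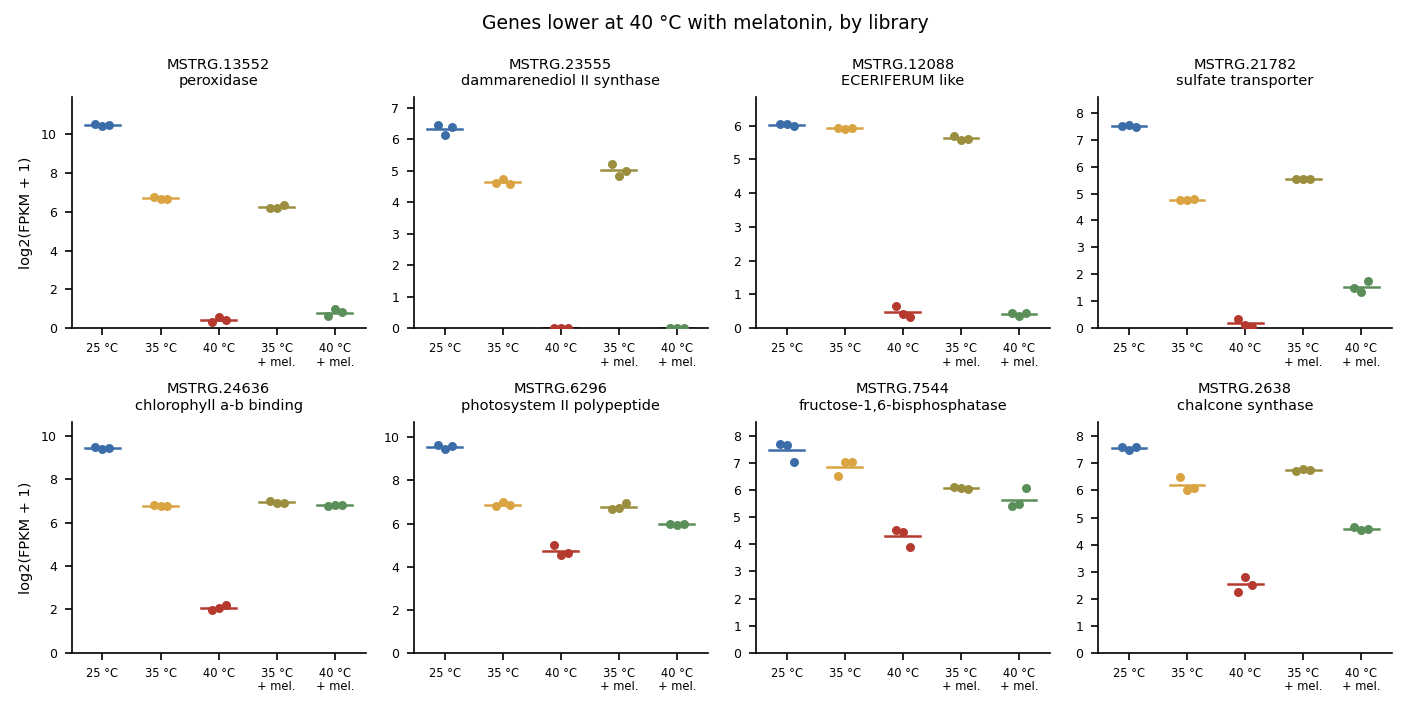
Levels of 8 genes called lower at 40 °C with melatonin than at 25 °C, as log2(FPKM + 1) in each library (points) with the mean of 3 (bar) in the 5 groups. In the upper row both 40 °C groups lie near the axis, while in the lower row, of photosynthesis genes and chalcone synthase, the 40 °C group with melatonin lies between 25 °C and 40 °C without it.

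Trehalose and sucrose-cleaving genes were mostly lower. Of 13 genes for trehalose, a sugar whose phosphate signals sucrose status, 10 were lower and 2 higher than at 25 °C (median -2.01). Trehalose-phosphate phosphatase MSTRG.13682 read 19.5, 18.8 and 22 FPKM at 25 °C and 0.279, 0 and 0.539 FPKM at 40 °C with melatonin (log2 fold change -6.27 ± 0.66, adjusted p = 2.6e-06) and was at 0 at 40 °C without it. Trehalose-phosphate synthase MSTRG.146 read 3.69, 3.14 and 3.6 FPKM at 25 °C, 11.3, 11.5 and 10.2 FPKM at 40 °C with melatonin and 448, 452 and 461 FPKM at 40 °C without. It rose against 25 °C (log2 fold change 1.56 ± 0.07, adjusted p = 1.2e-10) and was far below the hot group without melatonin (-5.56 ± 0.08, adjusted p = 1.2e-15). Sucrose synthases and invertases, which cleave sucrose, had 12 lower and 2 higher of 19. The wall invertase MSTRG.4749 fell from 16.8 ± 1.61 to 1.58 ± 0.0666 FPKM, and the sucrose synthase MSTRG.2177 rose from 53.5 ± 0.595 to 104 ± 1.67 FPKM (adjusted p = 1.8e-10 and 3.8e-12).

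Sulfate uptake and assimilation genes were mostly lower. They had 17 lower and 3 higher of 24 (median -1.38), with a summed level of 672 to 685 FPKM at 25 °C and 196 to 201 FPKM at 40 °C with melatonin. The sulfate transporter MSTRG.21782, at chromosome 13, 2670757 to 2679224, read 182, 188 and 178 FPKM and 1.84, 1.56 and 2.38 FPKM (log2 fold change -6.66 ± 0.23, adjusted p = 4.1e-12). ATP sulfurylase MSTRG.7789, which activates sulfate, fell from 47.6 ± 1.6 to 3 ± 0.14 FPKM (adjusted p = 1.4e-12). The nitrogen list had 9 lower and 5 higher of 19, and aquaporins, the water channels, 7 and 5 of 20, a lower share of 35% near the 33.3% over all genes. Aquaporin MSTRG.8662 fell from 195 ± 10.3 to 31 ± 2.88 FPKM (adjusted p = 7e-14), with 0.644 ± 0.069 FPKM at 40 °C without melatonin.

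Auxin, gibberellin and cytokinin genes were lower more often than higher. In auxin signalling, whose proteins drive cell expansion, 54 of 84 genes were lower and 13 higher (median -1.36), though the list summed to 2626 to 2692 FPKM at 25 °C and 2884 to 2961 FPKM at 40 °C with melatonin. The auxin-responsive gene MSTRG.6081 fell from 14.3, 16.3 and 17.9 to 0.499, 0.839 and 1.07 FPKM (log2 fold change -4.42 ± 0.26, adjusted p = 1.6e-09), and the SAUR gene MSTRG.7395 rose from 10.4 ± 1.12 to 48.8 ± 4.92 FPKM (adjusted p = 6.2e-08). Gibberellin genes had 14 lower and 3 higher of 19 (median -1.46). Gibberellin 3-beta-dioxygenase MSTRG.21443, which makes the active hormone, fell from 8.04 ± 1.29 to 0.307 ± 0.144 FPKM, and the inactivating enzyme gibberellin 2-oxidase 8 MSTRG.22678 from 7.87 ± 1.02 to 0.108 ± 0.0598 FPKM (adjusted p = 2.1e-07 and 3.9e-08). Another inactivating enzyme, gibberellin 2-beta-dioxygenase MSTRG.16711, rose from a mean of 1.49 to 8.53 FPKM (log2 fold change 2.41 ± 0.17, adjusted p = 9.4e-09). Cytokinin genes had 15 lower and 5 higher of 35.

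Jasmonate and lipoxygenase genes had 13 lower and 7 higher of 26, with allene oxide cyclase MSTRG.17440, a step to jasmonate, at 78.5 ± 5.37 FPKM at 25 °C and 14.2 ± 0.259 FPKM at 40 °C with melatonin (adjusted p = 3.4e-11). Abscisic acid genes had 19 lower and 10 higher of 43. Ethylene genes were 9 higher and 9 lower of 35. Ethylene response factor 10 (MSTRG.2182) rose from 0.811, 0.844 and 1.13 FPKM to 71.2, 69.9 and 72.8 FPKM (log2 fold change 6.14 ± 0.16, adjusted p = 2.7e-13), and at 35 °C it averaged 3.25 FPKM.

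Oxidant scavenging and respiration genes included single large rises. Mitochondrial alternative oxidase 1a (MSTRG.18747), which lets electrons bypass the last steps of respiration, read 4.6, 6.14 and 5.19 FPKM at 25 °C, 109, 109 and 114 FPKM at 40 °C without melatonin and 200, 198 and 207 FPKM with it. The log2 fold change was 5.14 ± 0.09 against 25 °C (adjusted p = 3.3e-15) and 0.67 ± 0.07 against 40 °C without melatonin (adjusted p = 1.9e-06). The 2 groups at 40 °C do not overlap. Alternative oxidase 1d (MSTRG.12804) rose from 26.8 ± 0.451 to 40.4 ± 3.59 FPKM (adjusted p = 6.1e-05). The nuclear genes of the mitochondrial respiratory chain had 9 lower and 2 higher of 17. Mitochondrial genome transcripts took a larger part of the counts at 40 °C with melatonin, as given above, and their part in these values was not tested.

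Catalases, superoxide dismutases and the ascorbate and glutathione enzymes had 12 lower and 5 higher of 23. Iron superoxide dismutase 3 (MSTRG.13076), which removes superoxide in plastids, rose from 19 ± 1.57 to 62.4 ± 6.06 FPKM (adjusted p = 6.8e-10), and glutathione peroxidase MSTRG.2094 fell from 32.3 ± 1.44 to 15.5 ± 1.28 FPKM (adjusted p = 4.9e-10). Thioredoxins and glutaredoxins had 39 lower and 17 higher of 77. Glutaredoxin S9 (MSTRG.2130) fell from 300, 293 and 294 to 72.8, 66.2 and 64.5 FPKM (log2 fold change -2.22 ± 0.06, adjusted p = 4e-13).

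Of the transcription factor families, WRKY had 28 lower and 8 higher of 55, bHLH 32 and 9 of 66, NAC 16 and 8 of 40, and MYB 29 and 19 of 72. The dehydration-responsive element-binding gene MSTRG.16730, of the family that answers drought and cold, rose from 1.23, 1.54 and 1.6 to 37.2, 37.7 and 38.5 FPKM (log2 fold change 4.59 ± 0.17, adjusted p = 7.4e-12). The NAC gene MSTRG.20464 rose from 4.52 ± 0.56 to 36.3 ± 0.416 FPKM and stood at 140 ± 7.89 FPKM at 40 °C without melatonin (adjusted p = 4e-13 against 25 °C and 7.3e-12 against 40 °C). WRKY 40 (Rhsim02G0213700), a regulator of defence, fell from 5.5 ± 0.363 to 0.0199 ± 0.0344 FPKM (adjusted p = 5.3e-05).

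Late embryogenesis abundant proteins, which protect drying cells, had 7 higher and 3 lower of 15. MSTRG.2164, protein 3L-1, read 7.12, 5.4 and 5.73 FPKM at 25 °C, 80, 70 and 79 FPKM at 40 °C with melatonin and 1065, 917 and 903 FPKM at 40 °C without. Its level with melatonin thus lay between the other groups (log2 fold change 3.54 ± 0.10 against 25 °C and -3.85 ± 0.09 against 40 °C, adjusted p = 3.2e-13 and 1.3e-13). Histones had 11 lower and 3 higher of 21, but summed to 818 to 878 FPKM at 25 °C and 1804 to 1848 FPKM at 40 °C with melatonin. The linker histone H1-like MSTRG.13869 alone rose from 237, 227 and 232 to 1425, 1415 and 1461 FPKM (log2 fold change 2.52 ± 0.03, adjusted p = 1.2e-16).

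A further set of genes was chosen because the 40 °C group with melatonin lay near 25 °C although 40 °C without melatonin was far from it, so their values are a description without a test. Galactinol synthase 1 (MSTRG.20857, chromosome 12, 18674010 to 18677112), which makes the precursor of raffinose sugars, read 5785, 5937 and 5791 FPKM at 25 °C, 6091, 6128 and 6157 FPKM at 40 °C with melatonin and 440, 434 and 449 FPKM at 40 °C without. By mean FPKM it ranked 2 of the listed genes at 25 °C, 1 at 40 °C with melatonin and 120 at 40 °C without, and it accounts for most of the summed level of the 13 raffinose and galactinol genes, 6314 to 6466 FPKM at 25 °C and 6439 to 6509 FPKM at 40 °C with melatonin. With RLE scaling and in DESeq2 it was called lower than at 25 °C, by a log2 fold change of -0.08 in each. The DNA mismatch repair like gene MSTRG.3297 read 7.05, 6.8 and 8.43 FPKM at 25 °C, 8.21, 8.12 and 7.32 FPKM at 40 °C with melatonin and 373, 390 and 381 FPKM without, and was raised at 35 °C in both groups (117 and 51.2 FPKM without and with melatonin). The galactosyltransferase MSTRG.11702 and the MYB108-like factor MSTRG.8135 were at 0 in all libraries at 25 °C and at 40 °C with melatonin, with 22.4 ± 1.46 and 18.8 ± 1.76 FPKM at 40 °C without it. The PR-1 type gene MSTRG.19659 averaged 0.0774, 0.0857 and 18.5 FPKM in the same order of groups. Without 40 °C melatonin replicate 2 its log2 fold change against 25 °C went from -0.10 to -4.63 and was called.

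Another set was chosen because the 40 °C group with melatonin lay above or below both other groups, and is likewise a description. The abscisic acid receptor like gene MSTRG.9907 (chromosome 5, 37938606 to 37939238) read 103, 105 and 109 FPKM at 40 °C with melatonin, 20.7, 16.6 and 19.7 FPKM at 25 °C and 8.76, 13.3 and 9.92 FPKM at 40 °C without. The DnaJ gene MSTRG.19199 read 71.9, 72 and 75.1 FPKM at 40 °C with melatonin and averaged 12.6, 9.56, 11.5 and 11.2 FPKM at 25, 35 and 40 °C without melatonin and at 35 °C with it. Both genes are high in a single group of the 5. Rubisco activase 1, above, belongs to this set.

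Below both lay expansin-A1 (MSTRG.20456, chromosome 12, 7817236 to 7819844), which loosens the wall, at 5.74, 5.62 and 4.45 FPKM at 40 °C with melatonin, 95.5, 91.2 and 97.8 FPKM at 25 °C and 253, 241 and 247 FPKM at 40 °C without. At 35 °C it averaged 88.2 FPKM without melatonin and 249 FPKM with it. Pectate lyase MSTRG.14880, which cuts pectin, read 2.73, 1.74 and 3.42 FPKM at 40 °C with melatonin and averaged 26.4 ± 0.818 FPKM at 25 °C and 318 ± 7.28 FPKM at 40 °C without. The cyclic dof factor MSTRG.17254, of a family tied to day length, averaged 2.69 FPKM at 40 °C with melatonin against 29.4 and 54.9 FPKM, the repressor OFP1 MSTRG.9954 0.331 against 5.79 and 12.2 FPKM, and the metallothiol transferase MSTRG.21421 6.33 against 34.2 and 83.6 FPKM.

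**Figure D5:**
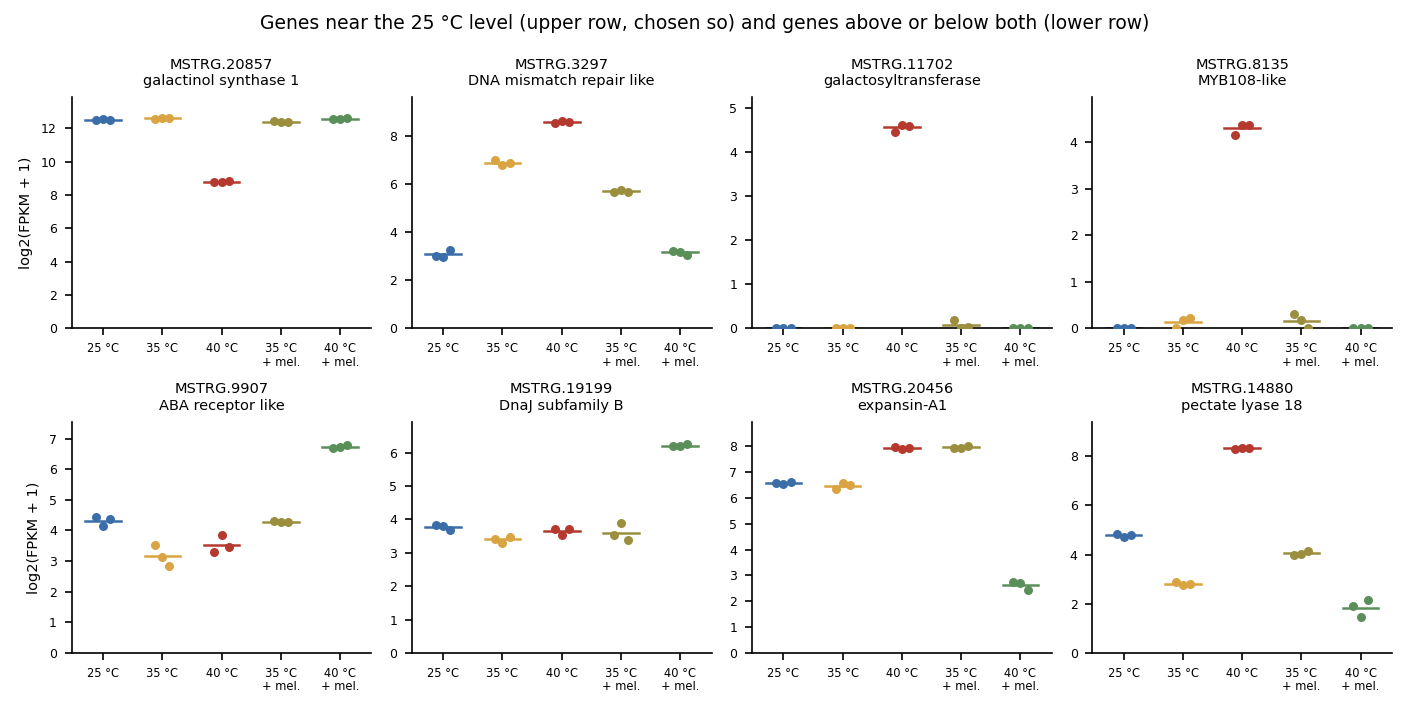
Levels of 8 genes as log2(FPKM + 1) in each library (points) with the mean of 3 (bar) in the 5 groups. The upper row holds genes chosen for a level at 40 °C with melatonin near that at 25 °C, and the lower row genes chosen for lying above (MSTRG.9907, MSTRG.19199) or below (MSTRG.20456, MSTRG.14880) both 25 °C and 40 °C without melatonin.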

How the data were processed

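Leaf RNA was selected with oligo(dT) and made into stranded dUTP libraries, per the labels' protocols. The submitters' processing notes name cutadapt 1.9, HISAT2 2.0.4 and StringTie 1.3.4d. No source used here states the genome build or the strand setting of the counting, so coordinates are as in the authors' table. Per the file headers, that deposited table holds a whole-number count and an FPKM value for each of 29985 genes and each library. Column names were read with the study's design as melatonin-free and melatonin-applied, and 6 columns of no listed sample were not used. Among counts of 1 to 20, 58.8 to 63.0% were even, so a count may be a mate rather than a fragment.

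Counts were tested with edgeR 4.0.16 (R 4.3.3; TMM, filterByExpr, quasi-likelihood) on all 15 libraries in 5 groups, so the spread has 10 residual degrees of freedom, and p-values were adjusted by Benjamini-Hochberg over 26183 genes. A standard error is the log2 fold change divided by the root of the F statistic. Fold changes are on edgeR's scale and levels in FPKM. Counts were also simulated for these genes, with the 25 °C means in all groups and a change only in planted genes above a low level. There, 70 of 100 genes changed by 1 log2 unit and 93 of 100 changed by 2 were called in this comparison, with 8 false calls. In the data most genes were called, so these rates do not carry over to it. 1459 tested genes had no count in one of the groups. Their fitted fold changes depend on the prior count, and setting them to a floor of 3 counts over the group moved 6 of 71 list medians, by up to 0.49.

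The members and gene lists were chosen with earlier results of these data known. Genes matching a list but joining several gene names were left out, and kept in an alternative. Named genes, but for tissue markers and genes said to be named after their values were seen, are the 10 largest rises and falls in log2(FPKM + 1), for each list of at least 5 tested members the 2 largest changes in its main direction and 1 in the other, 6 genes near 25 °C, and 5 above and 5 below both groups, with at least 5 FPKM and no overlap of the groups where a call was asked for. Alternatives were DESeq2 1.42.0, limma 3.58.1 on log2(FPKM + 1) and log2(FPKM + 0.1), RLE scaling, no filter, a replicate block, 2 groups only, glmTreat, a threshold of 0.01 and leaving out each library.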

Additional observations from a re-analysis of the deposited data

How the results depend on the processing

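The count of genes called between 40 °C with melatonin and 25 °C was 17692, and it lay between 16763 and 16801 when any one library of the 2 groups was left out. It was 18021 in DESeq2, 17093 in limma on log2(FPKM + 1), 16959 with a pseudocount of 0.1, 18421 without a filter in limma, and 15107 at an adjusted p under 0.01. Genes with at least 2-fold differences numbered 9769, and 6834 in limma and 7130 with glmTreat, where glmTreat tests for more than 2-fold and limma differs in input, filter, pseudocount and test; the cause was not tested. Leaving out libraries gave 9459 to 9518. The labels share replicate numbers across groups, but same-numbered libraries did not deviate together (correlations of -0.037 to 0.018). No pairing was thus seen, which does not show that there is none. With the replicate number as a block the count was 17358. With the block no named gene changed its call. RLE scaling gave 8608 higher and 9086 lower. In limma on log2(FPKM + 0.1) the median of all genes moved by 0.10 for 40 °C with melatonin against 25 °C and by 0.18 against 40 °C without melatonin. For the 219 named genes over all alternatives, 2613 results had the same call, and no gene called in the main fit changed direction. For genes not called in the main fit, direction was not compared. Of the other results, 6 lost the call, all of MSTRG.3168, and 4 gained it, of MSTRG.19659 and MSTRG.20857. Galactinol synthase 1 (MSTRG.20857) was called in DESeq2, under RLE scaling and with 2 groups only, at -0.08, -0.08 and -0.03 on the log2 scale, and MSTRG.19659 without 40 °C melatonin replicate 2. The median of the HSP90 list, 0.61, became -0.77 in limma and -0.88 with 2 groups only, and that of HSP70, -0.36, became 0.00 without 25 °C replicate 3. Medians of photorespiration, starch and glutathione S-transferases, among others, also changed sign, and no direction is given for those lists. The lipid transfer median moved in DESeq2, in limma, with no filter, with 2 groups only and without any one 25 °C replicate. In limma the medians of the small heat shock, class III peroxidase, trehalose, wax, auxin, gibberellin and lignin lists moved too, without a change of sign. The number of class III peroxidases called lower moved without 40 °C melatonin replicate 1. Depth was 54300447 counts or more per library.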

Other observations

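Some genes were higher in both groups with melatonin than in the groups without. MSTRG.18243, a class III peroxidase, read 14.1, 12.7 and 12.2 FPKM at 35 °C and 27.1, 24.9 and 27.6 FPKM at 40 °C with melatonin, while the 3 groups without melatonin averaged 3.41, 2.67 and 3.15 FPKM at 25, 35 and 40 °C. MSTRG.9947, peroxidase 2, read 16.2, 15.7 and 15.7 and 16.9, 17.6 and 15.2 FPKM in the groups with melatonin and averaged 3.05, 2.72 and 2.27 FPKM without. MSTRG.23468, a lipid transfer protein, read 18.6, 1.01 and 11.1 FPKM at 35 °C and 25.8, 28.6 and 15.6 FPKM at 40 °C with melatonin and averaged 0.19, 1.19 and 0.913 FPKM without. In both peroxidase genes every library with melatonin exceeded every library without, whereas for the lipid transfer gene 1 library at 35 °C with melatonin, at 1.01 FPKM, lay within the range of the libraries without. These genes were picked from the named genes after their values were seen, and 35 °C with against without melatonin was not tested.

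MSTRG.20567, a TolB like protein, showed another order: it read 25.5, 24.9 and 25.2 FPKM at 40 °C without melatonin and 0.00375, 141 and 0.0164 FPKM at 35 °C with it, so that 1 of the 3 libraries at 35 °C with melatonin holds nearly all of that group's level. In the other 3 groups it averaged 0.00509, 0.00508 and 0.00876 FPKM at 25 °C, at 35 °C without melatonin and at 40 °C with it. Disease resistance genes, the receptors that sense pathogen proteins, had 33 higher and 40 lower of 194 against 25 °C, both shares below those over all genes. Against 40 °C without melatonin 72 were higher and 18 lower, beside 32.9% and 26.2% over all genes. The share higher lay near that over all genes and the share lower well below it. For 40 °C without melatonin against 25 °C, 28 were higher and 88 lower, beside 37.3% and 38.6% over all genes. At 40 °C with melatonin against 25 °C, starch genes had 9 higher and 8 lower of 22 (40.9% and 36.4%), and autophagy genes 12 and 9 of 36 (33.3% and 25%). Over all genes the shares were 34.3% and 33.3%, so neither list stands out.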
